A study of Homo sapiens with 6 samples.

Results

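Cathepsins are the proteases of the lysosome, and 9 of them form the group described here: CTSA, CTSB, CTSC, CTSD, CTSH, CTSL, CTSS, CTSV and CTSZ. They were picked by gene symbol, with earlier results of these data known, and account for 9 of the 24580 rows of the expression table. The measurements come from RNA sequencing of 2 groups of untreated cells. One is LoVo, an established human colorectal cancer cell line that the labels give as wildtype, with 3 libraries. The other is LoVo-HM, labelled as a subline of LoVo with high metastatic capacity, also with 3 libraries. How LoVo-HM was obtained and whether it is 1 clone are not stated in the labels, nor whether the libraries of a line came from separate cultures, so the p-values measure only the spread between these libraries, which may be technical.

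Lysosomal cathepsins are made as inactive precursors, tagged with mannose 6-phosphate in the Golgi, carried to the lysosome and activated there by proteolytic removal of a propeptide. In the lysosome they break down proteins delivered by endocytosis and autophagy. Tumour cells can also release them, and outside the cell they can cut matrix proteins and adhesion molecules. Most belong to the papain family, which uses a cysteine for catalysis and is held in check by the cystatins. CTSD is an aspartic protease and CTSA a serine carboxypeptidase.

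Levels are given in FPKM, fragments per kilobase of transcript adjusted for the mapped fragments of a library, so that levels of different genes can be compared per length. Totals were 434108 to 439082 FPKM in LoVo libraries and 424624 to 428265 in LoVo-HM libraries. Read counts were not used here and the depth is unknown, so no counting intervals are given. Each log2 difference is the level in LoVo-HM less that in LoVo, as log2(FPKM + 1) and with its SE, and the added 1 makes the change of low genes look smaller. Tests are limma's moderated tests, two-sided, with Benjamini-Hochberg adjustment over the 14487 genes whose mean was at least 0.5 FPKM, and an adjusted p under 0.05 was called. All 9 cathepsins were among the tested genes. As a check of the cells, 6 of 8 colon epithelial markers were expressed in both lines. All 6 were called as different between the lines, beside 44.9% of all tested genes. EPCAM (128 and 51.7 FPKM on average in LoVo and LoVo-HM) and CDH1 (48.0 and 7.91) fell, while KRT8, KRT18, KRT19 and the intestinal factor CDX2 (8.39 and 14.7) rose. The intestinal markers VIL1 and CDX1 were listed at 0 in all 6 libraries. Among 12 macrophage markers, a cell type rich in cathepsins, PTPRC, AIF1, CD163 and LAPTM5 were listed at 0 in all 6 libraries. The 12 summed to 3.78 to 4.62 FPKM in LoVo and 2.94 to 3.68 in LoVo-HM, most of it CD68, itself a lysosomal protein. Of 8 fibroblast markers COL1A2 and FAP were listed at 0 throughout, and the 8 summed to 4.83 to 6.36 FPKM in LoVo and 4.92 to 5.75 in LoVo-HM, most of it COL1A1.

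Of the 9 cathepsins, 6 fell in LoVo-HM (CTSB, CTSC, CTSH, CTSL, CTSS and CTSV), 1 rose (CTSA) and 2 did not pass the threshold (CTSD and CTSZ). Among all tested genes 44.9% were called, 23.1% as lower and 21.8% as higher. By catalytic type, 6 of the 7 cysteine cathepsins fell and CTSZ did not pass, the serine carboxypeptidase CTSA rose, and the aspartic protease CTSD did not pass. The median log2 difference of the 9 was -0.51, beside 0.00 over all tested genes. The libraries of the lines did not overlap for any of the 9 genes, 8 of them lower in LoVo-HM and 1 higher. Over all tested genes 55.0% did not overlap, and 27.9% did so with LoVo-HM lower. In a bulk sample, fewer cells that make a transcript and less of it per cell cannot be told apart.

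**Figure D1:**
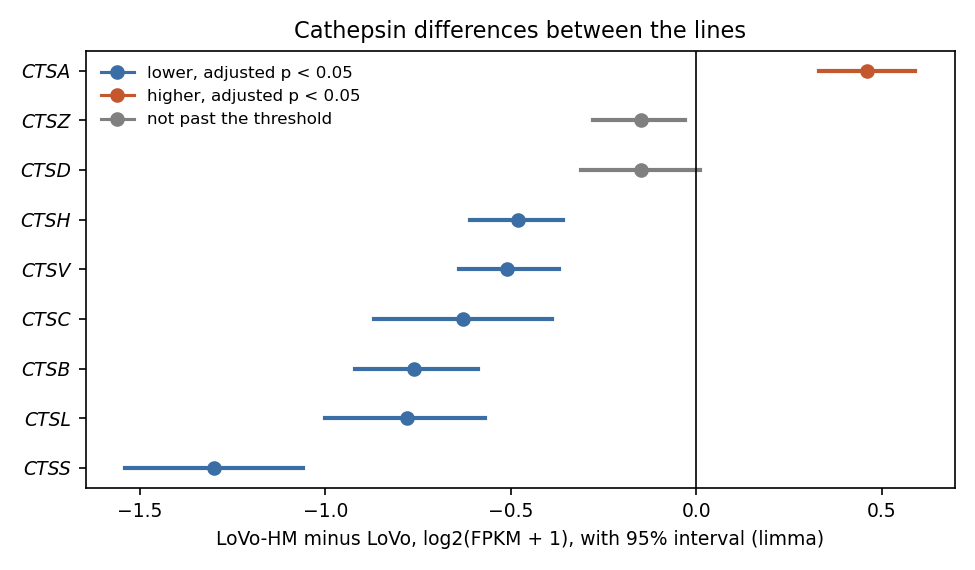
Log2 difference of each cathepsin, LoVo-HM minus LoVo on the log2(FPKM + 1) scale, with points for the estimate and lines for limma's 95% interval from 3 libraries per line. CTSS lies farthest to the left at -1.30, CTSA is alone on the right at 0.46, and the grey points are CTSD and CTSZ, both at -0.15.

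The genes lie apart from each other in the genome (GRCh38, GENCODE 29). CTSL and CTSV, close relatives, are both on chromosome 9, CTSL at chr9:87725519-87731393 on the plus strand and CTSV at chr9:97029679-97039643 on the minus strand. CTSC (chr11:88293592-88337787) and CTSD (chr11:1752752-1764573) lie on the minus strand of chromosome 11. CTSA (chr20:45890144-45898820, plus strand) and CTSZ (chr20:58995185-59007247, minus strand) lie on chromosome 20. CTSH is at chr15:78921058-78949574 and CTSS at chr1:150730196-150765957, both on the minus strand. All 9 are annotated as protein coding.

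The RefSeq promoter table (GRCh38.p14, 250 bases before to 50 after each annotated gene start) held 7 of the 9 genes, all but CTSB and CTSS. Its starts are RefSeq's, which lie inside the outermost GENCODE gene ends given above for 6 of the 7. The distance was 4528 bases for CTSH, 1191 for CTSA, 646 for CTSD, 600 for CTSL, 501 for CTSV and 51 for CTSC. The letters CACGTG, the core of the element through which TFEB and related factors bind lysosomal genes, were searched on both strands and read the same on each. They were present in the promoters of CTSA and CTSD and in those of no other cathepsin in the table, and 7.26% of all 35116 promoters hold them. CTSA held them at 2 places, starting 42 and 25 bases before the RefSeq start, and the nearer one sits within TCACGTGA, found in 0.98% of promoters. CTSD held them once, 47 bases before its start. The longer palindromic CLEAR element was in none of the 7 windows and in 0.353% of all promoters. The GC box GGGCGG was in all 7 windows on one strand or the other, and in 45.0% of all promoters. CTSA and CTSD are shown because they hold CACGTG, the first a gene that rose and the second a gene that did not pass the test. A stretch of 30 bases upstream of the RefSeq start is given for each, 5′ to 3′ on the gene's strand, with CACGTG in capitals (chr20:45891289-45891318, plus strand, for CTSA and chr11:1763957-1763986, minus strand, for CTSD). In GENCODE 29 all bases of both stretches lie in annotated untranslated regions of the same gene, taken over all its transcripts.
CTSA: ctgtCACGTGgcgccggagttCACGTGact
CTSD: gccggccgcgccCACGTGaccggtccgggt

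CTSL and CTSV are shown because they are the closest pair of the family and both fell. Their promoters share an identical stretch of 23 bases, which starts 96 bases before the RefSeq start of CTSL and 86 bases before that of CTSV. Over the 21 pairs of cathepsin promoters in the table the next longest shared stretch was 13 bases, between CTSD and CTSH. The shared stretch, in capitals below, contains CCAAT, a box that was also in the promoter of CTSC and is in 34.6% of all promoters (either strand). The 30 bases shown are chr9:87726019-87726048 on the plus strand for CTSL and chr9:97039203-97039232 on the minus strand for CTSV. Both stretches also lie in GENCODE untranslated regions of the same gene. A match of letters describes the sequence and does not show that a factor binds there.
CTSL: agctGCCGGCACAGCCAATCGCAGCGCagc
CTSV: agtgGCCGGCACAGCCAATCGCAGCGCggg

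Among the cysteine endopeptidases, which cut within protein chains, CTSL, CTSV and CTSS fell, while the aspartic endopeptidase CTSD, described further on, did not pass. CTSL, a broad protease of the lysosome, stood at 27.4, 32.8 and 31.8 FPKM in LoVo replicates 1 to 3 and at 16.4, 15.9 and 19.9 in LoVo-HM. Every LoVo library was above every LoVo-HM library. The mean fell from 30.7 ± 2.88 to 17.4 ± 2.15 FPKM (SD, n = 3), a log2 difference of -0.78 ± 0.0961 (limma adjusted p = 0.000236). CTSV, which in normal tissue is known chiefly from thymus and testis, had 21.0, 20.1 and 20.4 FPKM in LoVo and 14.6, 13.3 and 14.6 in LoVo-HM. The groups were again apart, with SDs of 0.416 and 0.732 FPKM. Its log2 difference was -0.51 ± 0.0578 (limma adjusted p = 0.000155). The coding sequences of CTSL and CTSV were identical at 83.5% of 999 aligned bases, the highest of the 36 pairs of members. Their transcripts nevertheless shared no stretch of 50 bases, the longest identical run being 40 bases. The ratio of CTSL to CTSV was 1.5 ± 0.169 in LoVo and 1.23 ± 0.119 in LoVo-HM, with overlapping libraries (exact two-sided permutation test, p = 0.2, where 3 against 3 libraries cannot go below 0.1).

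CTSS, an endopeptidase of antigen-presenting cells that trims the class II invariant chain, was the lowest of the 9 and had the largest fall. LoVo libraries held 2.58, 2.48 and 2.34 FPKM and LoVo-HM libraries 0.561, 0.337 and 0.344 FPKM. No LoVo-HM library came near the LoVo range. Mean levels were 2.47 ± 0.117 and 0.414 ± 0.128 FPKM, 5.96-fold lower in LoVo-HM (log2 difference -1.30 ± 0.105, limma adjusted p = 1.88e-05). The LoVo-HM mean alone was under the filter of 0.5 FPKM, so CTSS was tested only through its LoVo level. Because the level is close to the added 1, the log2 difference grew to -2.35 with a pseudocount of 0.1 (limma adjusted p = 5.14e-05). On the main scale 4.29% of tested genes had a difference at least as large in either direction. Of a list of 6 class II antigen processing genes, which includes the transcriptional activator CIITA, all 6 fell, beside 23.1% of all tested genes. That list was chosen with earlier results of these data known, so its count is no independent support. CIITA, HLA-DRA and HLA-DMB averaged 0.343, 0.267 and 0.354 FPKM in LoVo-HM and were tested only through their LoVo levels. Among the 6 genes was CD74, the invariant chain, which stood at 622, 585 and 610 FPKM in LoVo and 7.70, 7.83 and 7.32 in LoVo-HM. IFI30, a lysosomal thiol reductase of the same route, was at 84.2, 77.0 and 61.9 FPKM in LoVo and 41.2, 60.7 and 55.1 in LoVo-HM (log2 difference -0.51 ± 0.149, limma adjusted p = 0.0233), and its call was lost without LoVo replicate 1 (adjusted p = 0.0778), LoVo replicate 2 (0.0695) or LoVo-HM replicate 1 (0.0565) and with no filter on low values (0.0707).

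Of the cysteine cathepsins that trim protein ends, CTSB, CTSC and CTSH fell and CTSZ did not pass. The serine carboxypeptidase CTSA, described further on, rose. CTSB, which acts both as an endopeptidase and as a carboxydipeptidase and has been widely studied in tumour invasion, had the largest fall in absolute level. It stood at 121, 128 and 133 FPKM in LoVo and at 66.6, 80.3 and 78.3 in LoVo-HM. The highest LoVo-HM library was well below the lowest LoVo library. Means were 127 ± 5.98 and 75.1 ± 7.37 FPKM (log2 difference -0.76 ± 0.0728, limma adjusted p = 5.44e-05). CTSC, the dipeptidyl peptidase that activates granule serine proteases in immune cells, was at 12.6, 11.2 and 11 FPKM in LoVo and 7.15, 6.08 and 8.38 in LoVo-HM. Its libraries were more scattered in LoVo-HM, with a coefficient of variation of 16.0% against 7.46% in LoVo, and its log2 difference was -0.63 ± 0.106 (limma adjusted p = 0.00152). CTSH, an aminopeptidase, was at 29, 28.7 and 29.4 FPKM in LoVo and 21.6, 20.4 and 19.4 in LoVo-HM. LoVo libraries lay within 1 FPKM of each other, and the log2 difference was -0.48 ± 0.0547 (limma adjusted p = 0.000143).

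CTSZ, a carboxypeptidase also known as cathepsin X, did not pass the threshold. Its values were 42.5, 38.9 and 40.0 FPKM in LoVo and 35.2, 38.5 and 35.1 in LoVo-HM, so that the lowest LoVo library and the highest LoVo-HM library nearly met. The log2 difference was -0.15 ± 0.0567, with a 95% interval of -0.28 to -0.03 before adjustment (limma adjusted p = 0.0539). Without LoVo-HM replicate 2, the highest of its group, the difference was -0.20 and passed (limma adjusted p = 0.0272).

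CTSD, the major aspartic protease of the lysosome, also did not pass. It was at 144, 117 and 125 FPKM in LoVo and at 114, 115 and 116 in LoVo-HM. The LoVo-HM libraries were nearly equal, with a coefficient of variation of 0.873%, while the LoVo libraries varied by 10.8%. The log2 difference was -0.15 ± 0.0701 with a 95% interval of -0.31 to 0.01 (limma adjusted p = 0.106), and without LoVo replicate 2 it was -0.22 and passed (limma adjusted p = 0.0335). CTSD can share reads with neighbours: 60.6% of the stretches of 50 bases in its transcript also occur in 2 overlapping gene models. One of them, AC068580.4 on the same strand, is in the table at 0.0983, 4.08 and 0.366 FPKM in LoVo and at 0, 0.347 and 1.45 in LoVo-HM. Its highest value is in LoVo replicate 2, the LoVo library with the lowest CTSD, and its part in the CTSD values was not tested. The value of CTSD is therefore uncertain by the reads that could have been assigned to that model.

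CTSA, the serine carboxypeptidase also called protective protein, was the only cathepsin of the 9 that rose. It stood at 43.4, 46.3 and 49.5 FPKM in LoVo and at 64.5, 65.2 and 62.4 in LoVo-HM. Each LoVo-HM library exceeded each LoVo library by more than the whole range within LoVo. Means were 46.4 ± 3.05 and 64.0 ± 1.47 FPKM (log2 difference 0.46 ± 0.0555, limma adjusted p = 0.00022). Exons of CTSA overlap those of 3 genes on the other strand, NEURL2, PLTP and AL008726.1 (7.34% of the exon bases, not analysed here), and the strand setting of the counting is not given in the sources used here, so reads there may not be told apart. Of the stretches of 50 bases in the CTSA transcript, 24.0% also occur in an overlapping gene model. NEURL2 covers 17.7% of the exon bases of CTSA and was at 0.854 FPKM or less in all 6 libraries. PLTP, a phospholipid transfer protein which covers 3.42%, was at 59.8, 55.5 and 55.1 FPKM in LoVo and at 34.3, 36.6 and 33.8 in LoVo-HM, the opposite order to CTSA.

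CTSA binds the sialidase NEU1 and the beta-galactosidase GLB1 in a lysosomal complex, and protects both from degradation. NEU1 was at 13.8, 13.7 and 13.6 FPKM in LoVo and 19.4, 17.8 and 20.2 in LoVo-HM. Like CTSA, it was higher in every LoVo-HM library, with a log2 difference of 0.45 ± 0.061 (limma adjusted p = 0.000413). GLB1 was at 17, 16.1 and 15.9 FPKM in LoVo and 13.8, 14.3 and 13.2 in LoVo-HM, so this partner fell (-0.23 ± 0.0578, limma adjusted p = 0.0116). The ratio of NEU1 to CTSA was 0.296 ± 0.0222 in LoVo and 0.299 ± 0.0252 in LoVo-HM, with overlapping libraries (exact two-sided permutation test, p = 0.8). The ratio of GLB1 to CTSA was 0.354 ± 0.0357 and 0.215 ± 0.00324, without overlap (exact two-sided permutation test, p = 0.1, the smallest that 3 against 3 libraries allow). These are 2 of 6 ratios computed, and after Benjamini-Hochberg adjustment over the 6 the exact permutation p-values were 0.8 and 0.15.

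**Figure D2:**
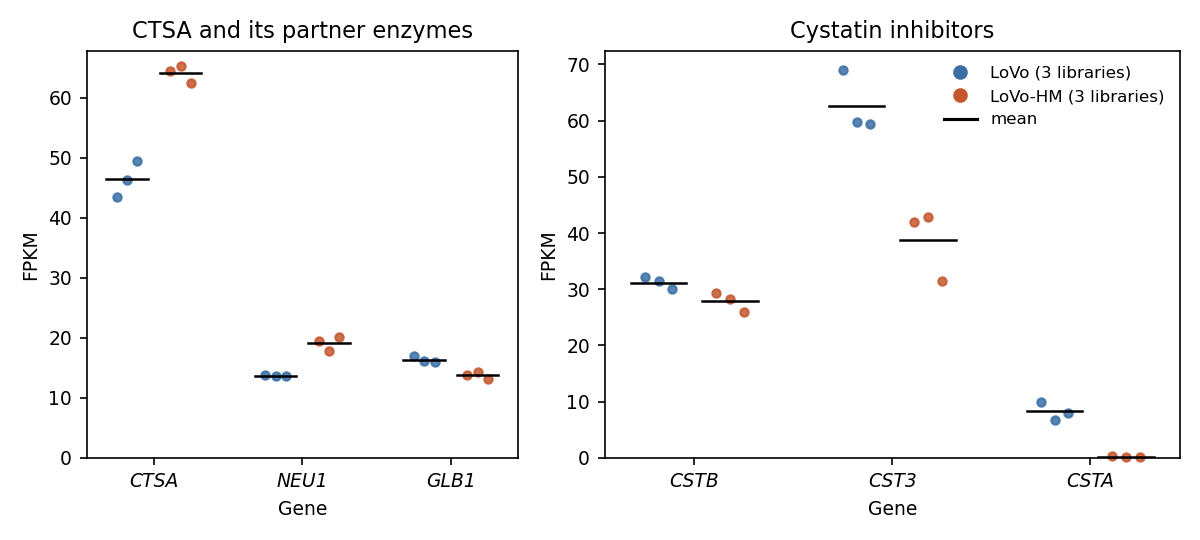
FPKM of CTSA, NEU1 and GLB1 (left) and of the cystatins CSTB, CST3 and CSTA (right), with a point per library and a line at the mean of 3 libraries per line. CTSA and NEU1 are higher in every LoVo-HM library and GLB1 is lower, while CSTA is near 0 in LoVo-HM, at 0.25 FPKM or less.

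The order of the levels was largely the same in both lines. In LoVo, CTSD (128 FPKM on average) and CTSB (127 FPKM) came first and overlapped in their libraries. They were followed by CTSA, CTSZ, CTSL, CTSH, CTSV, CTSC and CTSS, and among these only the neighbours CTSL and CTSH overlapped. In LoVo-HM, CTSD (115 FPKM) stood above CTSB (75.1 FPKM) without overlap, and CTSA followed closely at 64.0 FPKM. CTSH and CTSL were in the reverse order there, but their libraries overlapped. The ratio of CTSB to CTSD was 0.840, 1.10 and 1.06 in LoVo and 0.586, 0.699 and 0.676 in LoVo-HM (exact two-sided permutation test, p = 0.1, adjusted over 6 ratios p = 0.15). The ratio of CTSA to CTSZ, the carboxypeptidases, was 1.15 ± 0.113 in LoVo and 1.77 ± 0.0689 in LoVo-HM (exact two-sided permutation test, p = 0.1, adjusted p = 0.15). Neither ratio overlapped between the lines, and 0.1 is the smallest p that 3 against 3 libraries allow.

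**Figure D3:**
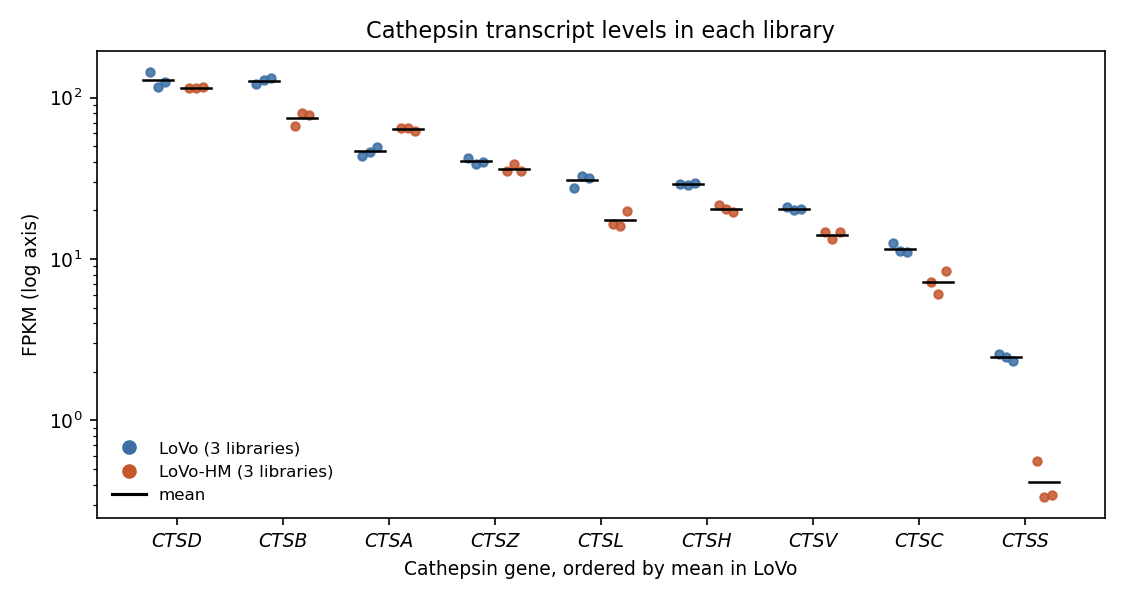
FPKM of each cathepsin on a log axis, with a point for each of the 3 LoVo and 3 LoVo-HM libraries and a line at each mean, ordered by the mean in LoVo. Levels span from 144 FPKM for CTSD in a LoVo library to 0.337 FPKM for CTSS in a LoVo-HM library, and the libraries of the lines do not overlap for any gene.

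Summed over the 9 genes, cathepsin transcripts made up 443, 426 and 442 FPKM in LoVo and 340, 355 and 354 in LoVo-HM. That is 0.1% ± 0.0021 and 0.0821% ± 0.00222 of a library's total FPKM (SD, n = 3). CTSB alone accounted for 29.1% ± 1.63 of the sum in LoVo and 21.4% ± 1.63 in LoVo-HM, and CTSA for 10.6% ± 0.733 and 18.3% ± 0.669. CTSD held 29.4% ± 2.70 and 32.8% ± 0.531. CTSS made up less than 1% of the sum in both lines, so the gene with the largest fold difference hardly weighed in the total.

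**Figure D4:**
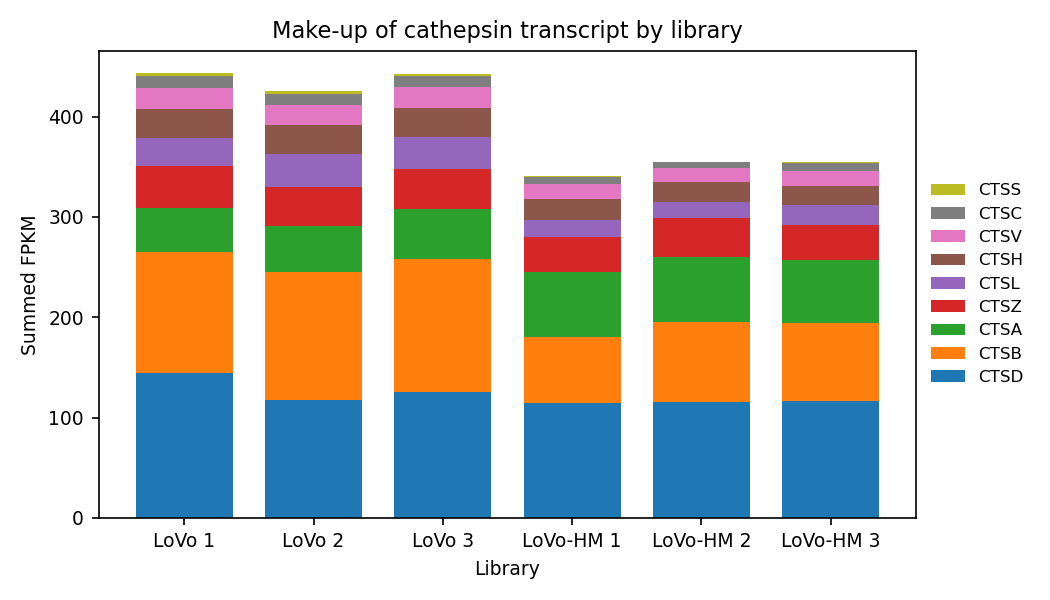
Stacked FPKM of the 9 cathepsins in each of the 6 libraries, starting at 0. The LoVo bars reach 426 to 443 FPKM and the LoVo-HM bars 340 to 355 FPKM, with a narrower CTSB band and a wider CTSA band in LoVo-HM.

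Other genes named cathepsins, which were not part of the group, were low. CTSO was at 3.36, 1.72 and 2.14 FPKM in LoVo and 1.05, 1.18 and 1.39 in LoVo-HM, and fell (-0.60 ± 0.168, limma adjusted p = 0.0185), a call that was lost without LoVo-HM replicate 1 (adjusted p = 0.0594) and with no filter on low values (0.0516). CTSK, the collagen-degrading cathepsin of osteoclasts, was at 0.660 to 1.45 FPKM in LoVo and 1.28 to 1.81 in LoVo-HM and did not pass (0.36 ± 0.157, limma adjusted p = 0.0932). It passed without LoVo replicate 3 (adjusted p = 0.0317). CTSF was too low to test, at 0.0938 FPKM or less in LoVo and 0.233 to 0.548 in LoVo-HM. CTSE and CTSG were listed at 0 in all 6 libraries.

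Of 12 cystatin and serpin protease inhibitors, 3 were high enough to test, of which 2 fell and 1 did not pass. Over all tested genes 44.9% were called, 23.1% as lower. CSTA, an intracellular cystatin of stratified epithelia, fell from 9.97, 6.79 and 8.04 FPKM in LoVo to 0.25, 0.0644 and 0.132 in LoVo-HM (-3.0 ± 0.135, limma adjusted p = 4.23e-07). With a mean of 0.149 FPKM in LoVo-HM, CSTA was tested only through its LoVo level. CST3, the secreted cystatin C, was at 69.0, 59.7 and 59.4 FPKM in LoVo and 41.9, 42.9 and 31.4 in LoVo-HM (-0.69 ± 0.115, limma adjusted p = 0.0014). CSTA and CST3 were thus lower in every LoVo-HM library, as were the 6 cathepsins that fell, CTSD and CTSZ. The same held for 27.9% of all tested genes, CSTB among them. CSTB, the widely expressed intracellular cystatin, was at 32.1, 31.5 and 30 FPKM in LoVo and 29.4, 28.2 and 26.0 in LoVo-HM and did not pass (-0.16 ± 0.0594, limma adjusted p = 0.0579), though it did without LoVo-HM replicate 1 (adjusted p = 0.0469). The ratio of CTSB to CSTB was 4.09 ± 0.328 in LoVo and 2.71 ± 0.393 in LoVo-HM (exact two-sided permutation test, p = 0.1, adjusted over 6 ratios p = 0.15). Its libraries did not overlap between the lines, and 0.1 is the smallest p that 3 against 3 libraries allow. Of the 9 inhibitors that were not tested, 7 were listed at 0 in all 6 libraries, CST6 among them.

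In the machinery that tags and carries lysosomal enzymes, 2 of 15 genes rose, 2 fell and 11 did not pass. That is 26.7% called beside 44.9% of all tested genes, and the difference was not tested. GNPTAB, the catalytic subunit of the enzyme that starts the mannose 6-phosphate tag, was at 17.2, 17.5 and 17.8 FPKM in LoVo and 13.1, 11.8 and 13.4 in LoVo-HM (-0.43 ± 0.0626, limma adjusted p = 0.000647). GNPTG, another subunit of that enzyme, went the other way, at 9.98 ± 0.311 FPKM in LoVo and 13.0 ± 2.03 in LoVo-HM (0.34 ± 0.103, limma adjusted p = 0.0249). SORT1, an alternative sorting receptor, fell (-0.25 ± 0.0543, limma adjusted p = 0.00546), and the adaptor GGA2 rose (0.20 ± 0.0466, limma adjusted p = 0.00888). The mannose 6-phosphate receptors themselves did not pass. M6PR was at 58.5 ± 2.19 FPKM in LoVo and 53.7 ± 3.86 in LoVo-HM (limma adjusted p = 0.128, passing at 0.0384 once LoVo-HM replicate 3 was left out), and IGF2R was at 15.7 ± 1.26 and 14.6 ± 0.602 FPKM (limma adjusted p = 0.293).

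Other lysosomal hydrolases went both ways, with 6 of 35 tested genes higher, 10 lower and 19 not past the threshold, and a median log2 difference of -0.01. The share called, 45.7%, was close to that of all tested genes. RNASET2, a lysosomal ribonuclease, fell to 13.7 ± 0.716 FPKM in LoVo-HM, against 32.1 ± 0.304 in LoVo (-1.18 ± 0.0548, limma adjusted p = 5.41e-07). ASAH1, acid ceramidase, and MAN2B1, an alpha-mannosidase, fell by 0.72 and 0.69 on the log2 scale. LGMN, the asparaginyl endopeptidase that helps to activate several cathepsins, did not pass, at 31.3, 31.1 and 30.5 FPKM in LoVo and 29.8, 32.2 and 24.9 in LoVo-HM (limma adjusted p = 0.373). Its log2 difference of -0.10 ± 0.0854 shrank to 0.00 without LoVo-HM replicate 3.

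Lysosomal membrane and accessory proteins rose in 1 of 17 genes and fell in 5, with 11 not past the threshold and a median of -0.11. The share called was 35.3%, beside 44.9% of all tested genes. GM2A, a lipid-binding activator protein, fell to 8.64 ± 0.492 FPKM in LoVo-HM, against 16.1 ± 0.879 in LoVo (-0.82 ± 0.068, limma adjusted p = 2.08e-05). PSAP, the precursor of the saposins, stood at 186 ± 4.52 FPKM in LoVo and fell to 157 ± 5.09 in LoVo-HM (-0.24 ± 0.0411, limma adjusted p = 0.00147). The abundant membrane proteins LAMP1 and LAMP2 did not pass, at 79.2 ± 2.03 and 81.8 ± 3.59 FPKM for LAMP1 (limma adjusted p = 0.451) and 24.8 ± 0.419 and 23.2 ± 0.453 FPKM for LAMP2 (limma adjusted p = 0.154). Subunits of the V-ATPase, the pump that acidifies the lysosome, had 1 of 16 genes higher, 3 lower and 12 not past the threshold, with a median of 0.00. Among these subunits 25.0% were called. Without LoVo replicate 3 the count called in this list was 2 in place of 4.

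TFEB, TFE3 and MITF are transcription factors that bind the CACGTG core in many lysosomal genes. TFEB was low, at 2.38, 3.93 and 2.85 FPKM in LoVo and 1.87, 1.51 and 1.52 in LoVo-HM, and fell (-0.61 ± 0.143, limma adjusted p = 0.00842). TFE3 was at 9.88 ± 0.868 FPKM in LoVo and 8.29 ± 0.179 in LoVo-HM (-0.23 ± 0.0747, limma adjusted p = 0.0376), a call that 9 of 17 alternative settings ended, with adjusted p-values up to 0.12 without LoVo replicate 1. MITF was at 6.70 ± 0.991 and 6.35 ± 0.172 FPKM and did not pass (limma adjusted p = 0.645). With ZKSCAN3 and with regulators at the lysosome surface, 4 of 16 tested genes of this list fell, 2 rose and 10 did not pass. That is 37.5% called, beside 44.9% of all tested genes. RRAGD, a GTPase of the nutrient-sensing complex, was among those that fell (-0.41 ± 0.0535, limma adjusted p = 0.000338). So was ZKSCAN3, at 1.55 ± 0.00594 FPKM in LoVo and 0.983 ± 0.0647 in LoVo-HM (-0.37 ± 0.0916, limma adjusted p = 0.0114).

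**Figure D5:**
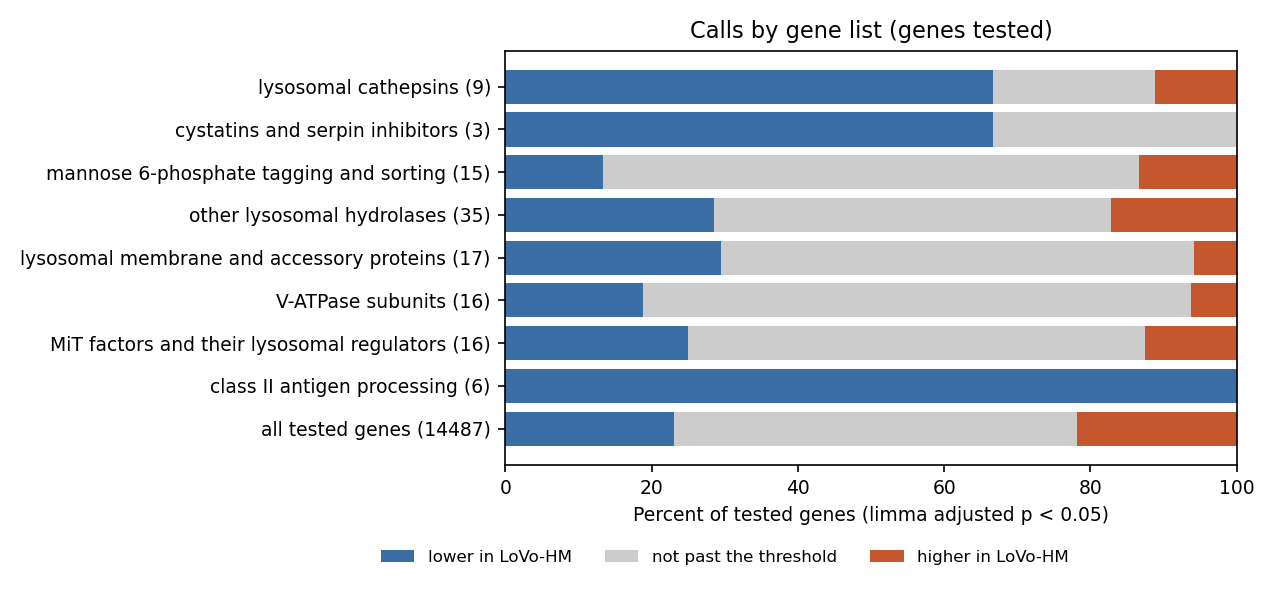
Share of tested genes called lower, not past the threshold or called higher in LoVo-HM (limma adjusted p under 0.05) for the cathepsins, 7 related lists and all tested genes, with the number tested in brackets. Of the 9 cathepsins 6 are lower, while among the 35 other hydrolases 10 are lower and 6 higher.

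The genes whose profiles over the 6 libraries lay closest to those of the 2 extreme members were sought among tested genes with an Ensembl identifier, by the root mean square distance between log2(FPKM + 1) values centred on each gene's mean. Closest to CTSA were MBTD1 (0.0222 log2 units), CKAP2L (0.0277) and CARD14 (0.0328). CARD14 was low, at 0.526 FPKM in LoVo and 1.08 in LoVo-HM on average, where the added 1 makes its change look smaller. In FPKM it rose 2.06-fold, beside the 1.38-fold rise of CTSA. Closest to CTSS were SEMA4B (0.0465), SH3BP1 (0.0488) and CDCP1 (0.0587). SEMA4B, for example, was at 18.1 FPKM in LoVo and 7.19 in LoVo-HM on average, a 2.52-fold fall at a higher level, beside the 5.96-fold fall of CTSS.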

How the data were processed

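Per the labels' protocols, Trizol RNA went into Illumina TruSeq libraries. The authors deposited FPKM values for 24580 rows and 6 libraries. Per the submitters' processing notes they used GRCh38. Not given in the sources used here: aligner, counter, annotation, strand setting, depth. Ratios of values under 0.3 FPKM showed no steps worth 1 read: the commonest bin of 0.05 log2 units held 3.35% and 2.61% of ratios in the 2 pairs of libraries checked.

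Values were used as deposited, as log2(FPKM + 1), for genes averaging 0.5 FPKM or more. The fit used limma 3.58.1 (R 4.3.3) and let the variance follow the level. Simulated data of 14487 genes used independent normal noise with each gene's spread within the lines, and 50 genes were changed at each size. There the fit recovered 18%, 70%, 96% and 100% of changes of 0.25, 0.5, 1 and 2 log2 units among genes above about 2 FPKM. Of its calls 4.7% were false. Far fewer genes changed there than the 44.9% called in the data, so these rates do not carry over to the real comparison. The members and lists were chosen with earlier results of these data known. Named genes are the 9 members, up to 3 genes of each list with the smallest p that the text uses as examples, 22 genes given whatever their result, and the nearest profiles. PLTP, NEURL2, AL008726.1 and AC068580.4 are named for overlapping a member, and CTSG, GNPTG and further marker genes were named after their values were seen. Positions, exons and transcripts are from GENCODE 29. Coding sequences (the longest per gene) were aligned globally with Biopython 1.88, and promoters are from RefSeq. Replicate numbers did not pair the libraries. Alternatives were other pseudocounts, filters, scalings and variance models, a fit without models lacking a symbol, a replicate block, and leaving out each library.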

Additional observations from a re-analysis of the deposited data

How the results depend on the processing

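Each result was recomputed under 17 alternatives, 6 of which leave out 1 library. The 6 cathepsins that fell and CTSA, which rose, kept direction and call under every alternative that tested them. CTSS was not tested with a minimum mean of 2 FPKM. Leaving out 1 library gave log2 differences of -0.22 to -0.07 for CTSD and -0.20 to -0.12 for CTSZ, with 7 to 8 cathepsins called. The count for all genes was 5484 to 5986 without 1 library and 5653 to 6638 otherwise, beside 6508. The number of other cathepsins called, 1, became 0 with a minimum mean of 2 FPKM, at which neither is tested, 2 with quantile normalization, 2 with the replicate block, and 0 to 2 without 1 library. The cause was not tested. The number of V-ATPase subunits called, 4, became 2 in limma without a trend and 2 to 5 without 1 library. LGMN ranged from -0.18 to 0.00 without 1 library, the latter without LoVo-HM replicate 3. MITF ranged from -0.14 to 0.04, the latter without LoVo replicate 3, and was 0.00 with quantile normalization. Of 38 named genes outside the group that were followed under the alternatives, 11 changed call or sign under some of them. GNPTG was not among the 38. Same-numbered libraries of the lines did not deviate together (correlations of -0.007, 0.022 and 0.026), so the replicate block has no basis in pairing. With it 6459 genes and 7 cathepsins were called, CTSK (limma adjusted p = 0.0449) and CSTB (0.0388) passed, and TFE3 did not (0.0565). Depth is unknown, so how far it limits CTSS and CTSF was not tested.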
